A study of Canis lupus familiaris with 8 samples.

Results

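The 4 measured crystallin and lens filament genes were described in retina of fixed and unfixed dog eyes: CRYAB, an alpha crystallin; CRYBB3, a beta crystallin; CRYGS, a gamma crystallin; and BFSP1, which encodes the beaded filament protein filensin. They were taken by gene symbol from a list of 10, and 4 of the 10 were among the 12824 genes of the expression table. The other members, CRYAA, CRYBA1, CRYBA4, CRYBB1, CRYBB2 and BFSP2, were not analysed here. The 8 libraries came from retina of male wild-type Beagles of 31 weeks. In the PFA-fixed group (4 libraries), left eyes were held in 4% paraformaldehyde (PFA), a crosslinking fixative, for 3 h and in 2% PFA for 24 h, passed through 15% and then 30% sucrose, and frozen in embedding medium, and RNA was freed with 18 h of proteinase K and a kit for paraffin-embedded tissue. In the fresh-frozen group (4 libraries), right eyecups were embedded without fixation or sucrose, and RNA was taken with a micro-scale column kit. Fixation, left or right eye and RNA kit thus changed as one, and their effects cannot be told apart. The labels name 4 biological replicates per group and do not tie libraries to dogs or to a quadrant of the eyecup, so p-values reflect only how these libraries vary, which may be technical.

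Crystallins are the soluble proteins that fill lens fibre cells and give the lens its refractive power. Alpha crystallins belong to the small heat shock proteins, chaperones that hold unfolding proteins in solution, and CRYAB is made in many tissues, among them retinal glia, myelin-forming cells and muscle. Beta and gamma crystallins share a fold of Greek key motifs. They are most abundant in lens, and several are also made in retina. BFSP1 and its partner BFSP2 build the beaded filament, an intermediate filament of lens fibre cells. The comparison addresses how far transcripts read as crystallins in a retinal sample depend on how the eye was prepared, and whether markers of lens accompany them.

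The effective depth, estimated from the spacing of the low values, was 11040000 to 15400000 reads in PFA-fixed libraries and 21660000 to 22770000 reads in fresh-frozen libraries. Values are log2 CPM, counts scaled to library size and logged, as deposited, and every gene of the table exceeded 1 CPM in at least 4 libraries. The rod list, which marks photoreceptors of the retina, had all 22 genes measured. Of all 12824 genes, 68.7% differed between the preparations (limma, Benjamini-Hochberg adjusted p under 0.05), 33.9% higher and 34.7% lower in PFA-fixed retina. With 3 of 4 members called, the share among members lies close to that of all genes. The groups did not overlap for the same 3 members, and for 62.9% of all genes. Changes are PFA-fixed minus fresh-frozen on the log2 scale. Levels are not scaled to transcript length, so a higher log2 CPM of one gene than of another need not mean more transcripts. Genes called most abundant or highest in level are so by log2 CPM only.

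**Figure D1:**
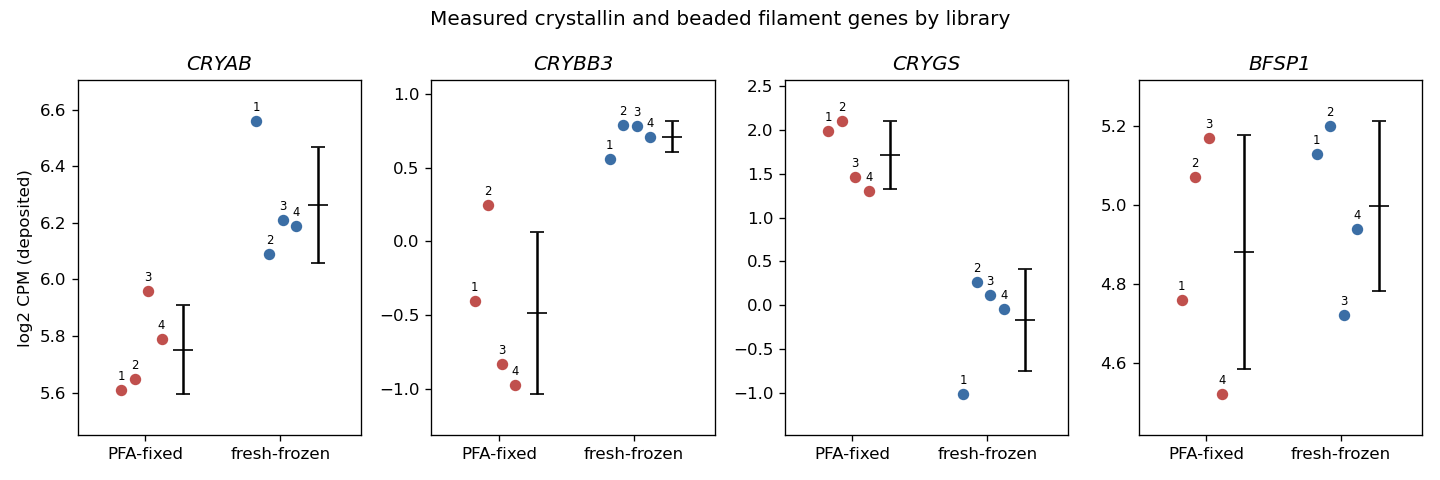
Deposited log2 CPM of CRYAB, CRYBB3, CRYGS and BFSP1 in each library, with PFA-fixed libraries left and fresh-frozen libraries right in each panel. Points are libraries with their replicate number, and the bar beside them is the mean with its SD (n = 4); the vertical axes differ between panels. CRYAB and CRYBB3 lie lower in all fixed libraries, CRYGS lies higher in all of them, and BFSP1 overlaps.

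CRYAB, the chaperone of the list, was modestly lower in PFA-fixed retina. It stood at 5.61, 5.65, 5.96 and 5.79 log2 CPM in PFA-fixed replicates 1 to 4, against 6.56, 6.09, 6.21 and 6.19 log2 CPM in fresh-frozen replicates 1 to 4. Every fixed library lay below every fresh-frozen one, a separation found downward in 31.6% of all genes, and fresh-frozen replicate 1 was the highest. The means were 54.2 ± 6.16 CPM in PFA-fixed and 77.5 ± 11.7 CPM in fresh-frozen retina (SD, n = 4 each). The change was -0.51 ± 0.11 (SE), with a limma adjusted p of 0.00155. Without fresh-frozen replicate 1 it was -0.41 (limma adjusted p = 0.00298). With each library centred on the mean of the rod list, which moved the median change of all genes to -0.295, it was -0.79. These values rest on an estimated 554 to 959 reads per fixed library and 1483 to 2046 per fresh-frozen library.

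Glial marker lists moved in the same direction as CRYAB. Of 14 measured Müller glia genes, 8 fell and none rose in PFA-fixed retina, with a median change of -0.74 beside -0.02 over all genes. With the rod list mean 13 of them fell. Müller cells are the radial glia of the retina. Among their most abundant genes, the intermediate filament gene VIM fell by 1.12 and the glutamine synthetase gene GLUL fell by 0.61. The largest falls of that list were TIMP3 (-3.48), an inhibitor of metalloproteinases also made by pigment epithelium, and RLBP1 (-3.17), a retinaldehyde-binding protein also made there. With the values as deposited, 6 genes of the list were not called. They were KCNJ10 (0.0015), SLC1A3 (-0.02), AQP4 (-0.20), DKK3 (-0.21), GPR37 (-0.25) and HES1 (-0.31). The mean of the Müller glia list was 6.77 to 7.16 log2 CPM in PFA-fixed libraries and 7.78 to 8.19 log2 CPM in fresh-frozen libraries. Its part in the CRYAB result was not tested. In bulk tissue, fewer cells of a type and less RNA per cell cannot be told apart.

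The list of astrocytes and oligodendrocytes, glia of the optic nerve, fell further and was uneven among fresh-frozen libraries. Of 13 measured genes, 8 fell and 1 rose, with a median change of -3.33. Without fresh-frozen replicate 1, 3 rose. The mean of the list was 1.81 to 2.22 log2 CPM in PFA-fixed libraries. It was 6.06 log2 CPM in fresh-frozen replicate 1, against 3.71 to 3.85 log2 CPM in the other 3 fresh-frozen libraries. The summed level was 74.9 to 108.2 CPM in PFA-fixed libraries and 385 to 2686 CPM in fresh-frozen libraries. CRYAB was highest in the same library, fresh-frozen replicate 1. CRYAB remained lower in fixed retina without that library, as given above. GFAP, a filament gene of astrocytes, ran from 1.79 to 5.19 log2 CPM in PFA-fixed libraries and from 3.65 to 10.53 log2 CPM in fresh-frozen libraries. Its change of -3.33 (limma adjusted p = 0.0245) lost its call without PFA-fixed replicate 2 (-2.82) or PFA-fixed replicate 3 (-3.05), as it did when limma was run with no intensity trend (limma adjusted p = 0.0573). Leaving out fresh-frozen replicate 1 gave -2.02, still called. The largest falls of the list were SOX10 (-5.78), a transcription factor of myelinating and neural crest cells, and the tight junction gene CLDN11 (-4.98). Unlike the mean of the list, SOX10 was even among fresh-frozen libraries, at 6.76 to 7.17 log2 CPM. OLIG2 of the same list rose by 0.99. The 4 genes not called were MOG (-0.07), MAG (-0.40), PAX2 (0.26) and OLIG1 (0.17).

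**Figure D2:**
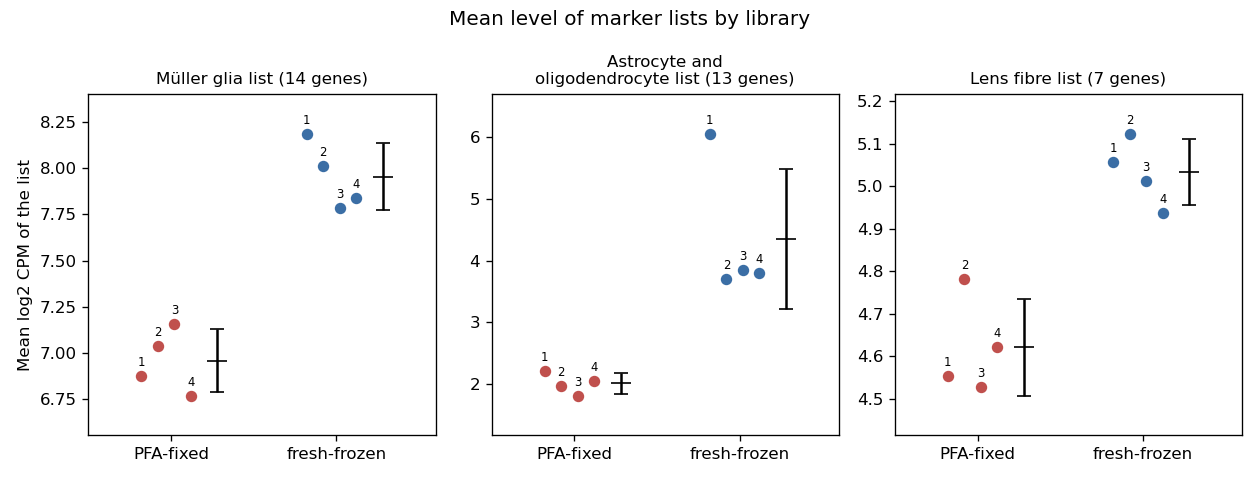
Mean log2 CPM of the measured genes of 3 marker lists in each library, PFA-fixed left and fresh-frozen right. Points are libraries with their replicate number, and bars are the mean with its SD (n = 4). Fresh-frozen replicate 1 stands at 6.06 for the astrocyte and oligodendrocyte list. The lens fibre list lies at 4.53 to 4.78 in fixed and 4.94 to 5.12 in fresh-frozen libraries. Its median change was nonetheless 0, with 4 of 7 genes not called, and its largest change was that of HSF4 (-2.52), which weighs on the mean.

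HSPB2, the gene next to CRYAB, moved the opposite way. In the RefSeq gene table of UU_Cfam_GSD_1.0 the genes are direct neighbours, and in mammals they are transcribed away from each other from a shared promoter region. HSPB2, a small heat shock protein known from muscle, stood at 4.86, 4.72, 4.78 and 4.84 log2 CPM in PFA-fixed replicates 1 to 4, against 3.50, 3.40, 3.36 and 3.70 log2 CPM in fresh-frozen replicates 1 to 4. The groups did not overlap, and the fixed libraries varied little among themselves. HSPB2 rose by 1.31 ± 0.11 (SE; limma adjusted p = 5.67e-07).

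The ratio of the neighbours within a library does not depend on the scaling between libraries. The log2 ratio of HSPB2 to CRYAB was -0.75, -0.93, -1.18 and -0.95 in PFA-fixed replicates 1 to 4, against -3.06, -2.69, -2.85 and -2.49 in fresh-frozen replicates 1 to 4. It was higher in all 4 fixed libraries, by 1.82 on average (-0.95 ± 0.18 in PFA-fixed and -2.77 ± 0.24 in fresh-frozen libraries; SD, n = 4 each). The exact two-sided permutation p over 70 assignments was 0.0286, the smallest that 4 against 4 libraries allow. Since HSPB2 was higher and CRYAB lower in every fixed library, the ratio had to separate completely. The permutation p thus follows from the single-gene values and adds nothing to them. Of 5 pairs listed for such a test, HSPB2 to CRYAB was the only one with both genes measured, so no adjustment applied. Whether the counting used strand is not given in the sources used here, so reads of adjacent genes may not be fully told apart.

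**Figure D3:**
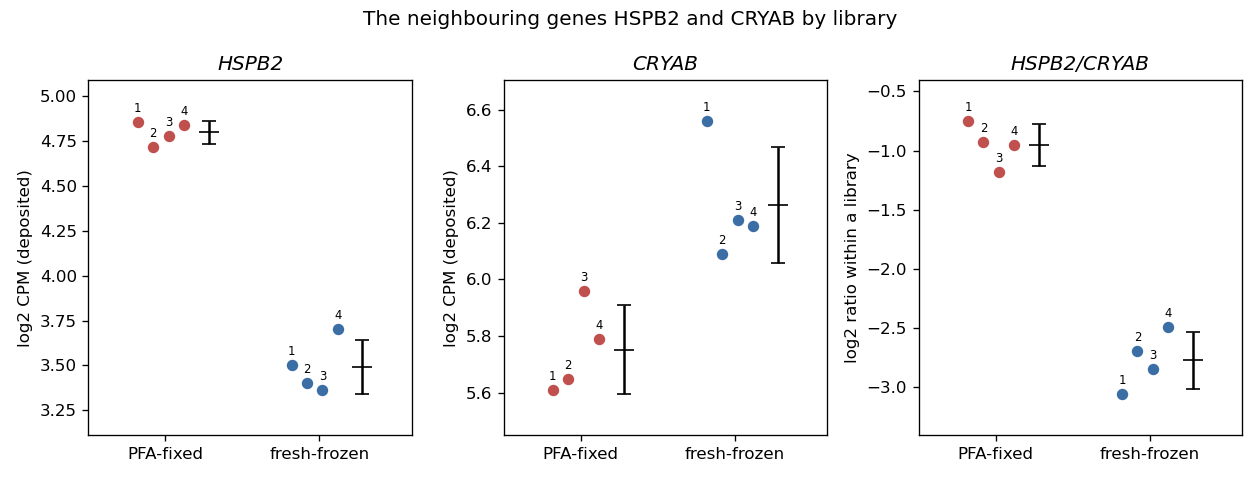
HSPB2 and CRYAB (log2 CPM) and the log2 ratio of HSPB2 to CRYAB in each library, PFA-fixed left and fresh-frozen right. Points are libraries with their replicate number, and bars are the mean with its SD (n = 4). HSPB2 was higher and CRYAB lower in the fixed libraries, and the ratio lay between -1.18 and -0.75 in fixed and between -3.06 and -2.49 in fresh-frozen libraries.

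The other small heat shock genes fell. Of 7 listed relatives of CRYAB, 5 were measured, of which HSPB2 rose and 4 fell, with a median change of -1.52. HSPB1, the broadly made chaperone also called HSP27, fell by 1.74 ± 0.12 (SE; limma adjusted p = 1.25e-07), with 4.45 to 4.99 log2 CPM in PFA-fixed and 6.30 to 6.64 log2 CPM in fresh-frozen libraries. HSPB6, a chaperone of muscle and other tissues, fell by 1.52, and HSPB8, which works with the co-chaperone BAG3, fell by 1.25. HSPB7, known from heart muscle, fell by 3.54. HSPB7 was at the lowest value of the table in PFA-fixed replicate 1, so its fall is understated by the offset of the log scale. HSPB6, HSPB7 and HSPB8 were, like CRYAB, highest in fresh-frozen replicate 1, at 6.09, 1.78 and 5.41 log2 CPM. Among the fresh-frozen libraries, HSPB1 was highest in replicate 3 (6.64, against 6.59 log2 CPM in replicate 1) and HSPB2 in replicate 4 (3.70 log2 CPM). The fall of CRYAB was smaller than that of each of the 4 small heat shock genes that fell, a difference between genes that was not tested. Muscle genes moved beside them: of 4 measured, 3 fell, and the muscle filament gene DES fell by 3.80, with 1.99 to 2.16 log2 CPM in PFA-fixed and 5.51 to 6.66 log2 CPM in fresh-frozen libraries. The mean of the muscle list was 4.14 to 4.80 log2 CPM in PFA-fixed libraries. It was 8.04 log2 CPM in fresh-frozen replicate 1, against 6.57 to 6.84 log2 CPM in the other 3 fresh-frozen libraries. Without that library 3 muscle genes still fell and 1 rose. Their part in the falls of the small heat shock genes was not tested.

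**Figure D4:**
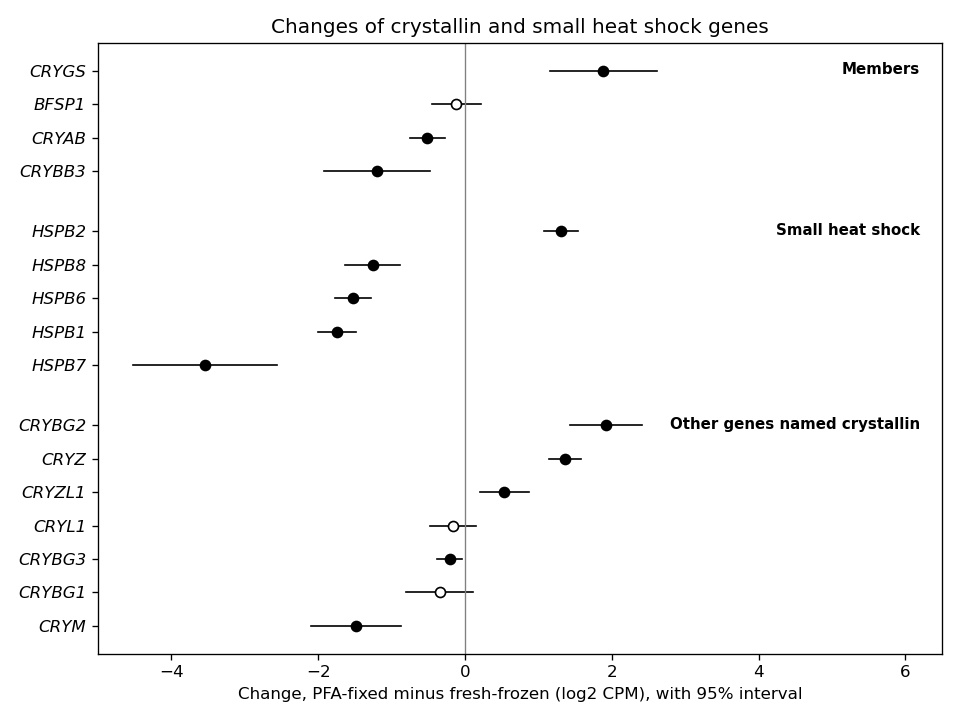
Change of each measured gene (PFA-fixed minus fresh-frozen, log2 CPM) with its 95% interval from limma, for the 4 members, 5 small heat shock genes and 7 other genes named crystallin. Filled points passed an adjusted p under 0.05. CRYGS, HSPB2, CRYBG2, CRYZ and CRYZL1 were called higher, and HSPB7 had the lowest change of those plotted (-3.54).

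CRYBB3 and CRYGS, the measured members of the beta and gamma families, went in opposite directions at low levels. CRYBB3, a structural beta crystallin, stood at -0.40, 0.25, -0.83 and -0.97 log2 CPM in PFA-fixed replicates 1 to 4, against 0.56, 0.79, 0.78 and 0.71 log2 CPM in fresh-frozen replicates 1 to 4. All fixed libraries were lower, and they were spread more widely than the fresh-frozen ones. CRYBB3 averaged 0.755 ± 0.307 CPM in PFA-fixed and 1.64 ± 0.117 CPM in fresh-frozen retina (SD, n = 4 each). It fell by 1.20 ± 0.33 (SE; limma adjusted p = 0.0069). Quantile normalization ended this call (-0.74, limma adjusted p = 0.0565), and log2(CPM + 1) gave -0.60, still called. These values rest on an estimated 5 to 12 reads per fixed library and 29 to 35 per fresh-frozen library.

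CRYGS, which encodes gamma-S crystallin of the lens cortex, stood at 1.99, 2.10, 1.47 and 1.30 log2 CPM in PFA-fixed replicates 1 to 4. In fresh-frozen replicates 1 to 4 it stood at -1.02, 0.26, 0.12 and -0.04 log2 CPM. All fixed libraries were higher, a separation found upward in 31.3% of all genes, and fresh-frozen replicate 1 was the lowest. CRYGS averaged 3.38 ± 0.896 CPM in PFA-fixed and 0.936 ± 0.309 CPM in fresh-frozen retina (SD, n = 4 each). It rose by 1.89 ± 0.33 (SE; limma adjusted p = 0.000343). The rise was 1.17 with log2(CPM + 1) and 1.61 without fresh-frozen replicate 1, both still called. An estimated 29 to 48 reads per fixed library and 8 to 24 per fresh-frozen library lie behind it.

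CRYBB3 exceeded 1 CPM in 1 fixed and 4 fresh-frozen libraries, and CRYGS in 4 fixed and 2 fresh-frozen libraries. Both therefore met the level seen throughout the table mainly through the group in which they were higher. The log2 ratio of CRYGS to CRYBB3 was 2.40, 1.85, 2.30 and 2.26 in PFA-fixed replicates 1 to 4, against -1.58, -0.53, -0.66 and -0.75 in fresh-frozen replicates 1 to 4. This ratio was chosen after the values were seen and was not tested. It lay above 0 in all fixed libraries and below 0 in all fresh-frozen ones. Among the fixed libraries both genes had the same order, with replicate 2 highest, then replicates 1, 3 and 4, and among the fresh-frozen libraries both were lowest in replicate 1.

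Measured genes beside CRYBB3 and CRYGS went the other way. In the RefSeq table, CRYBB3 overlaps KIAA1671, which rose by 2.75 ± 0.06 (SE; limma adjusted p = 1.55e-11), with means of 10.47 ± 0.05 log2 CPM in PFA-fixed and 7.72 ± 0.05 log2 CPM in fresh-frozen retina (SD, n = 4 each). CRYBB3 fell while the gene it overlaps rose. CRYGS overlaps a long noncoding RNA gene that was not analysed here. The nearest protein-coding genes beside CRYGS are the diacylglycerol kinase gene DGKG and the chaperone gene DNAJB11. DGKG fell by 0.73 (limma adjusted p = 0.00983). DNAJB11 fell by 0.46, with a limma adjusted p of 0.000194. Without a stated strand setting, reads of CRYBB3 and KIAA1671 and of CRYGS and its overlapping gene cannot be told apart with certainty. These neighbours were picked by position after the values of the members had been seen, from an assembly that may not be the one the authors used.

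BFSP1, the scaffold protein of the beaded filament, showed no call. It stood at 4.76, 5.07, 5.17 and 4.52 log2 CPM in PFA-fixed replicates 1 to 4, against 5.13, 5.20, 4.72 and 4.94 log2 CPM in fresh-frozen replicates 1 to 4. The groups overlapped, with the highest value in a fresh-frozen and the lowest in a fixed library. BFSP1 averaged 29.9 ± 5.93 CPM in PFA-fixed and 32.2 ± 4.69 CPM in fresh-frozen retina (SD, n = 4 each). The change was -0.12 ± 0.15 (SE; limma adjusted p = 0.512), with a 95% interval of -0.45 to 0.21. Centring on the rod list mean, which shifted the median of all genes by a similar amount, gave -0.39 and a call (limma adjusted p = 0.0178). An estimated 284 to 553 reads per fixed library and 581 to 798 per fresh-frozen library lie behind these values.

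Most other intermediate filament genes of the eye fell. Of 11 measured, 8 fell and 2 rose, with a median change of -0.64. The list holds VIM, which is also the filament of lens fibre and Müller cells, and DES and GFAP, whose values are given above. NEFM, a neurofilament gene of ganglion cell axons, rose by 0.70, with a limma adjusted p of 0.0047, and lost its call with the rod list mean (0.42). The other neurofilament genes of the list did not rise with it. NEFL fell by 0.64 (limma adjusted p = 0.0265), and NEFH differed by 0.14 and was not called (limma adjusted p = 0.535). INA of the same list fell by 0.56 (limma adjusted p = 0.00456). The nuclear lamina genes differed in direction, since LMNA fell by 2.67 and LMNB1 rose by 0.60.

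The major lens membrane gene MIP and the fibre genes LIM2, GJA3, LENEP, LGSN, GRIFIN and DNASE2B were not analysed here, and neither were CRYGA, CRYGB, CRYGC and CRYGD. The part of lens tissue in the crystallin values was not tested.

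A broader list of lens fibre genes, most of which other tissues make as well, went both ways. Of 15 listed, 7 were measured, 1 rose and 2 fell, with a median change of 0. With the rod list mean none rose and 4 fell. FYCO1 and TDRD7, cataract genes with roles in vesicle transport and RNA granules, had the highest levels. FYCO1 averaged 8.37 log2 CPM in both groups, with a change of -0.0001 (95% interval -0.16 to 0.16), and was called lower with the rod list mean (-0.28, limma adjusted p = 0.00428). TDRD7 differed by 0.14 and was not called (limma adjusted p = 0.0754), and was called with median centring (0.22). The actin-capping gene TMOD1 fell by 0.87. HSF4, the heat shock factor that acts on crystallin genes in lens and is a cataract gene of dogs, fell by 2.52 ± 0.21 (SE; limma adjusted p = 5.90e-07), with 0.66 to 1.28 log2 CPM in PFA-fixed and 3.27 to 3.91 log2 CPM in fresh-frozen libraries. The endosomal sorting gene CHMP4B rose by 0.37.

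Transcription factors that act on crystallin genes in lens went both ways. Of 10 measured among 15 listed, 4 rose and 5 fell, with a median change of -0.76. The homeodomain genes PAX6 and PROX1, both also made by retinal neurons, rose by 0.52 and 0.47, and MEIS1 and MEIS2 rose by 1.03 and 0.69. The call of PAX6 ended with the rod list mean (0.24). The basic leucine zipper genes MAF (-2.18) and MAFG (-1.75) fell. TFAP2A, an amacrine cell factor in retina, fell by 1.59. SIX3 differed by 0.08 and was not called.

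Genes that carry the crystallin name for sequence likeness, or because another animal's lens uses them, were all measured, and of 7, 3 rose and 2 fell. With the rod list mean 4 fell, and the falls numbered 1 where CRYBG3 lost its call. CRYZ, a quinone oxidoreductase that serves as a lens protein in guinea pig, rose by 1.36 ± 0.10 (SE; limma adjusted p = 2.80e-07), with 6.86 to 7.23 log2 CPM in PFA-fixed and 5.45 to 5.87 log2 CPM in fresh-frozen libraries. The groups did not overlap. Its relative CRYZL1 rose by 0.54, a call that ended with the rod list mean (0.26). CRYBG2, which shares the beta-gamma fold, rose by 1.92 ± 0.22 (SE; limma adjusted p = 1.22e-05), with 2.99 to 3.19 log2 CPM in PFA-fixed and 0.74 to 1.72 log2 CPM in fresh-frozen libraries.

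CRYM, a thyroid hormone-binding protein related to an enzyme and used as a lens protein in marsupials, fell by 1.48 ± 0.28 (SE; limma adjusted p = 0.000567), with 1.77 to 3.03 log2 CPM in PFA-fixed and 3.49 to 4.63 log2 CPM in fresh-frozen libraries. CRYBG3 fell by 0.21 (limma adjusted p = 0.031). This call ended without PFA-fixed replicate 1 (-0.22), 2 (-0.20) or 3 (-0.17), without fresh-frozen replicate 1 (-0.15), with median centring (-0.13) and with limma without trend. CRYBG1 differed by -0.34 (limma adjusted p = 0.165) and CRYL1, a sugar dehydrogenase known as a lens protein of rabbit, by -0.16 (limma adjusted p = 0.322). Both were called lower with the rod list mean, at -0.62 and -0.44. CRYBG1 was at 7.27 log2 CPM in fresh-frozen replicate 1 and at 6.16 to 6.39 log2 CPM in the other 3 fresh-frozen libraries.

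Lists of tissues around the retina moved with the preparation too. Of 8 measured genes of ciliary body, iris and cornea, 5 fell and 2 rose, with a median change of -1.11. The secreted protein gene MYOC had its largest fall (-10.37), while CPAMD8, a gene of anterior segment development, rose by 0.84. MYOC stood at the lowest value of the table in 2 fixed libraries, so this fall is understated likewise. All 12 pigment epithelium genes and all 11 sclera and fibroblast genes fell, with median changes of -4.87 and -7.40. In the rod list, 11 of the 22 genes rose and 4 fell, and the median change was 0.28. The lower calls numbered 7 with quantile normalization, 2 with limma without trend, 0 with median centring and 0 without PFA-fixed replicate 1. They numbered 1 when PFA-fixed replicate 2 or 4 or fresh-frozen replicate 2 was left out, and 2 when fresh-frozen replicate 3 or 4 was left out. With the rod list mean itself, 5 rose and 6 fell. The part of these tissues in the crystallin values was not tested.

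The genes most like CRYBB3 and CRYGS in their deviations from the group means were PLK5, CILP2, CCER2, EPGN and ATP5MJ. Pearson's r with the mean deviation of CRYBB3 and CRYGS ran from 0.769 (ATP5MJ) to 0.888 (PLK5) over 8 libraries. They were the 5 highest of 761 genes with a residual SD of at least 0.5, and no lens marker of the lists was among them. The points share library depth, and the values are a description of these libraries. Between the groups these genes differed in direction, with CCER2 and ATP5MJ higher by 3.91 and 2.80, EPGN by 1.65, CILP2 lower (-5.79) and PLK5 not called (0.71, limma adjusted p = 0.102).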

How the data were processed

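The deposited table holds log2 CPM, which the authors scaled between libraries. The submitters' processing notes name limma, edgeR and kallisto 0.48.0 without a role or order. Which transcripts, strand setting and filter the authors used is not given in the sources used here. All libraries share a lowest value of -3.12 log2 CPM (0.115 CPM), so changes of genes near it are understated.

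The table was tested as deposited with limma 3.58.1 (R 4.3.3, intensity trend, group as the only term, Benjamini-Hochberg adjustment over 12824 genes at 0.05), a step tested on simulated data. Within-library ratios were compared by exact permutation. Depth was estimated from the spacing of low values, searched between 0.03 and 0.15 CPM. Of values of up to 20 reads, 61.5% to 68.5% were whole within 0.1 of a read, so no count test was run and reads per gene are estimates. In 1 library a narrower spacing fitted about as well, and the wider one was taken.

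Members and lists were chosen with earlier results of these data known. Named genes were all members, all measured small heat shock and crystallin-named genes, the 2 most abundant and the 2 most changed called genes of each other list (rod and sclera lists as counts only) and the 5 likest genes; neighbours and a few further list members were added after their values were seen, and the rule's genes of the pigment epithelium and muscle lists are given as counts, except DES. Some genes that the rule takes are not reported here. Results were recomputed with other scalings, a minimum level, another pseudocount, no trend, the replicate block and single libraries left out. Of the gene symbols, 12495 matched the RefSeq table of UU_Cfam_GSD_1.0, which was used only for which genes neighbour each other.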

Additional observations from a re-analysis of the deposited data

Results flagged for a closer look

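HSPB6 in fresh-frozen replicate 1 was flagged as a library far from the others of its group, at 6.09 log2 CPM against 5.77 to 5.78 in the other 3. The members, the small heat shock genes and the other genes named crystallin gave 32 groups of 4 libraries for this check, and chance flags about 1 in 20 groups. None of the members was flagged, and the fall of HSPB6 kept its call without this library.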

How the results depend on the processing

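CRYAB and CRYGS kept their direction and call under every alternative that could be run for them, and CRYBB3 under all but quantile normalization (-0.744, limma adjusted p = 0.0565), which left 1 member called lower. A minimum mean of 3 log2 CPM removed CRYBB3 and CRYGS, leaving 1 member called, 0 higher and 1 lower (CRYAB). Without single libraries, CRYAB changed by -0.58 to -0.411, CRYBB3 by -1.44 to -1.036, CRYGS by 1.605 to 2.031 and BFSP1 by -0.213 to 0.004, the last without PFA-fixed replicate 4. The rod list mean called BFSP1 lower (-0.392) and reduced genes called higher to 2633 of 12824, against 4353 as deposited; calls were then 6175 lower against 4451, a shift that follows from its centring. Quantile normalization called 4872 higher and 4008 lower.

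Whether the replicate numbers pair the samples is not given by the labels. Deviations from the group means of same-numbered libraries correlated across genes at 0.05, 0.149, -0.089 and 0.224. Those of differently numbered libraries correlated at -0.27 to 0.219. Correlations this weak cannot decide whether same-numbered libraries share a dog. With the replicate block, 8799 genes were called against 8804, and every member kept its side of the threshold (CRYAB adjusted p = 0.00266, CRYBB3 0.0135, CRYGS 0.000891 and BFSP1 0.489, all from limma). The HSPB2 to CRYAB ratio differed by the same 1.821, with an exact sign-flip permutation p of 0.125, the smallest that 4 pairs allow. The opposite separation of the genes fixed that p as well. Without single libraries the ratio differed by 1.725 to 1.916.

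For 45 other named genes and 28 list counts, recomputed as an addition after seeing the data, 663 gene values under an alternative held 8 that gained and 12 that lost a call. Of 418 list counts under an alternative, 31 moved by over 1.5 times. Uncalled genes changed sign for CRYL1 (0.046, quantile normalization), TDRD7 (-0.138, rod list mean) and FYCO1 (0.079, median centring). Leaving out single libraries gave -0.033 to 0.063 for FYCO1 and -0.873 to 1.204 for ALDH1A1. The causes were not tested. With an estimated 5 to 48 reads per fixed and 8 to 35 per fresh-frozen library, depth limits CRYBB3 and CRYGS, and with 0 to 3 per fixed library it limits HSPB7.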

Other observations

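ALDH1A1, a retinaldehyde dehydrogenase that is also abundant in cornea and lens of several mammals, varied widely within both groups. It stood at 4.69, 5.52, 5.39 and -0.70 log2 CPM in PFA-fixed replicates 1 to 4, against 5.41, 5.89, 2.20 and 2.50 log2 CPM in fresh-frozen replicates 1 to 4. The groups overlapped, and the change of -0.27 ± 1.29 (SE) was not called (limma adjusted p = 0.862). KRT12, the keratin of corneal epithelium, rose by 1.93 (limma adjusted p = 0.000122) while KERA, a proteoglycan of corneal stroma, fell by 4.51 (limma adjusted p = 5.16e-06). KRT12 and KERA were named after their values were seen.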
